A study of Sus scrofa with 12 samples.

Results

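Skeletal myosin heavy chains are the motor proteins of the muscle thick filament, and 6 of their genes were looked for by symbol in the deposited count table: MYH1, MYH2, MYH3, MYH4, MYH7 and MYH8. The rule used only the identifier and its name, not the level. A row of counts was found for 2 of the 6, MYH3 (ENSSSCG00000018007) and MYH8 (ENSSSCG00000018005), among 25880 genes in the table. MYH1 and MYH4 have an identifier in the name table used here but no row under it, and MYH2 and MYH7 have no identifier there, so these 4 were not analysed here. Of the 20 genes with the most counts, 7 carried no symbol, and no symbol was assigned to them here.

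The muscle was Semimembranosus, a large muscle of the ham, of 12 Italian Large White pigs kept in the same environment on the same diet. The compared groups were 6 pigs with high intramuscular fat (high IMF, pigs 1 to 6) and 6 with low intramuscular fat (low IMF, pigs 7 to 12). Each group holds 3 animals labelled female and 3 labelled male, aged 234 to 244 days in the high IMF group and 229 to 249 days in the low IMF group. The pigs were chosen by the study as unrelated extremes of a larger purebred population, and neither group was treated.

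Each myosin heavy chain gene gives the fibre that uses it a characteristic speed of contraction. MYH7 encodes the heavy chain of slow fibres, and MYH2, MYH1 and MYH4 those of the fast fibres, from the more oxidative to the more glycolytic. MYH3 encodes the embryonic and MYH8 the perinatal heavy chain. These are used in turn by growing muscle before the adult chains take over, and both are known to come back in regenerating fibres.

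The genes are close copies of each other, which bears on what a count of MYH3 or MYH8 can hold. On Sscrofa11.1, RefSeq places MYH8 at chr12:55135651-55166983 and MYH3 at chr12:55351152-55373236, both on the minus strand, with MYH4 (55190545 to 55216294), MYH1 (55225581 to 55251495) and MYH2 (55252974 to 55278820) between them. MYH7 lies on chromosome 7, from 75650841 to 75672908 on the plus strand. RefSeq lists MYH3 and MYH8 under provisional names, and they were matched by their product names. The MYH8 coding sequence shares 89.8% of its bases with MYH1, 89.2% with MYH2, 89.3% with MYH4, 80.9% with MYH3 and 76.1% with MYH7. MYH3 is less close to the adult fast genes, at 80.4% with MYH1, 81.0% with MYH2 and 80.5% with MYH4. The reads were 100 bases long. Of all 5721 windows of 100 bases in the coding sequence, 482 of MYH8 (8.43%) and 329 of MYH3 (5.75%) occur letter for letter in at least 1 other of the genes MYH1, MYH2, MYH3, MYH4, MYH6, MYH7, MYH8 and MYH13. More windows match when up to 2 mismatched bases are allowed. For MYH8, 1146 windows then occur in MYH1, 1007 in MYH4, 887 in MYH2 and 0 in MYH7. For MYH3, 645 occur in MYH8, 359 in MYH1, 318 in MYH2, 265 in MYH4 and 0 in MYH7. Counts on MYH3 and MYH8 may therefore include reads from the adult fast genes, and their part was not tested. The longest run that MYH8 shares with an adult fast gene is 234 bases (MYH1 and MYH2), and that of MYH3 is 185 bases.

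A stretch of the motor domain shows where MYH8 differs least from the other genes. It was picked among stretches of 60 bases inside 1 coding exon of every gene with no gap. These 60 bases, 5′ to 3′ on the coding strand, lie in the 13th coding exon, at chr12:55156329-55156388 in MYH8 and chr12:55363002-55363061 in MYH3. Capitals mark the bases that differ from MYH8. There were 0 such bases in MYH3, MYH1 and MYH4, 1 in MYH2 and 3 in MYH7.
MYH8: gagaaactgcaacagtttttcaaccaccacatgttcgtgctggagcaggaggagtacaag
MYH3: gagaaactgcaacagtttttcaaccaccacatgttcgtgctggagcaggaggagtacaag
MYH1: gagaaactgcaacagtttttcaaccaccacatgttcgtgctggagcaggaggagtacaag
MYH2: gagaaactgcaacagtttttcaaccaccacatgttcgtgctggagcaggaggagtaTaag
MYH4: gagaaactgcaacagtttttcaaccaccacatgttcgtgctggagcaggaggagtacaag
MYH7: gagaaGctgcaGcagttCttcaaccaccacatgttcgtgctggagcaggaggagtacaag

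The second stretch lies in the 34th coding exon, in the rod, and is, among stretches of 60 bases that lie inside 1 coding exon of every gene with no gap, that at which MYH8 differs most from the others. It lies at chr12:55138445-55138504 in MYH8 and chr12:55353594-55353653 in MYH3. Capitals again mark differences from MYH8, 28 in MYH3, 24 in MYH2 and 23 each in MYH1, MYH4 and MYH7.
MYH8: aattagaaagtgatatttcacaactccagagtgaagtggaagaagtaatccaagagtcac
MYH3: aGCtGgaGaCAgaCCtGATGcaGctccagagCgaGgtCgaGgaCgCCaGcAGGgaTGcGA
MYH1: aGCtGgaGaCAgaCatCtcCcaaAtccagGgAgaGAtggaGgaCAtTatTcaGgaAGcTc
MYH2: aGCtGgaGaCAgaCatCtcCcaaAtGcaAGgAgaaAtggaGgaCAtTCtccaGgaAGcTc
MYH4: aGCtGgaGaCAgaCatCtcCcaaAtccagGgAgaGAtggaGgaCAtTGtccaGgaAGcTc
MYH7: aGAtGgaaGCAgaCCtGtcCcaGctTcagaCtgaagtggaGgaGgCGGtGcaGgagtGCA

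**Figure D1:**
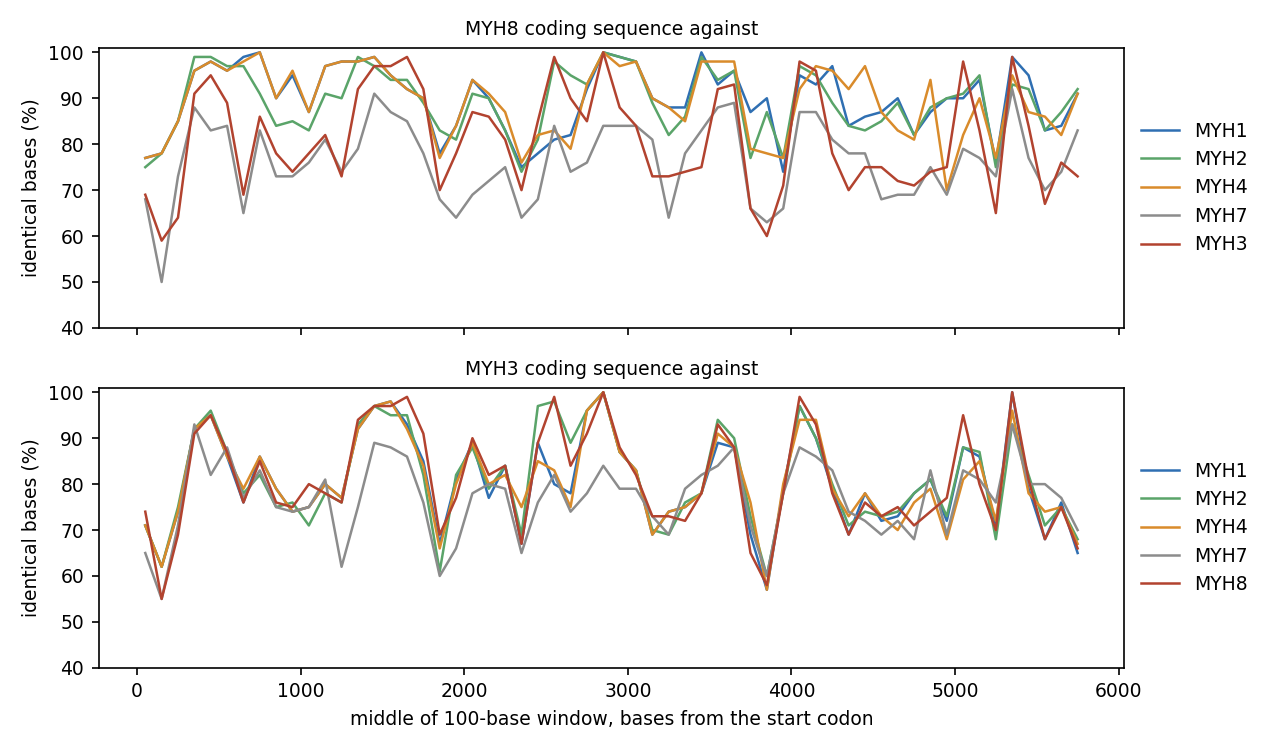
Identity of the MYH8 (top) and MYH3 (bottom) coding sequences with other heavy chain genes, as the percent of identical bases in windows of 100 bases along the coding sequence, in bases from the start codon. Windows of MYH3 against MYH8 run from 55% to 100%, and those of MYH8 against MYH7 from 50% to 92%. MYH1, MYH2 and MYH4 run closer to MYH8 than to MYH3.

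Totals ran from 131048805 to 154840282 counts in the high IMF pigs and from 133915596 to 178013997 in the low IMF pigs. MYH3 had at least 57617 and MYH8 at least 117102 counts in every pig, far above the range where counting error matters. The markers of skeletal muscle fibres (ACTA1, CKM, DES, NEB and MYOT) summed to between 44896.9 and 71379 CPM, the counts of a gene scaled to the normalized size of the library. The markers of heart muscle, a tissue that uses MYH6 and MYH7, summed to between 0.138 and 3.23 CPM over the 3 of 5 with a row, of which NPPB was listed at 0 in all pigs. Markers of adipocytes summed to between 44.8 and 126 CPM in the high IMF pigs and between 20.5 and 135 CPM in the low IMF pigs. In bulk tissue, fewer cells of a type and less RNA per cell cannot be told apart.

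The counts of 6 of the 12 pigs on 2 Y chromosome genes, EIF1AY and KDM5D, were against the labelled sex, with a gap between 6 and 3734 counts. These were pigs 3 and 5 of the high IMF group and pigs 7, 8, 9 and 10 of the low IMF group. Whether the group labels of these pigs are affected was not tested, and every comparison of the groups carries this limit. The results on MYH3 and MYH8 are therefore also given for the 6 other pigs, 4 high IMF and 2 low IMF.

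MYH3, the embryonic heavy chain, had counts assigned to it in every pig and varied little. In the high IMF pigs 1 to 6 it stood at 463, 473, 453, 393, 527 and 470 CPM, with a median of 467 CPM. In the low IMF pigs 7 to 12 it stood at 544, 548, 498, 608, 437 and 466 CPM, with a median of 521 CPM. The groups overlapped, with 3 low IMF pigs (7, 8 and 10) above every high IMF pig and 1 high IMF pig (4) below every low IMF pig. The 4 low IMF pigs with the most MYH3 were the 4 whose Y chromosome counts went against the label.

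The means of MYH3 were 463 ± 42.8 CPM (SD, n = 6) with high IMF and 517 ± 62.4 CPM (SD, n = 6) with low IMF. The log2 fold change (log2FC), low over high IMF, was 0.16 with a standard error of 0.10 and a 95% confidence interval from -0.06 to 0.38. By edgeR's quasi-likelihood test the unadjusted p was 0.147 and the Benjamini-Hochberg adjusted p over all 14262 genes tested was 0.617. The interval corresponds to a low IMF level of 0.957 to 1.30 times the high IMF level. Among the 6 pigs whose Y chromosome counts go with the label, the log2FC was 0.01 with an adjusted p of 0.998 (edgeR).

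MYH8, the perinatal heavy chain, was the more abundant of the pair in all 12 pigs. In the high IMF pigs 1 to 6 it stood at 1076, 1167, 1442, 994, 1123 and 928 CPM, with a median of 1100 CPM. In the low IMF pigs 7 to 12 it stood at 1207, 1121, 976, 1076, 874 and 969 CPM, with a median of 1026 CPM. The groups overlapped between 928 and 1207 CPM. Only pig 3 of the high IMF group lay above and only pig 11 of the low IMF group below the other group.

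The means of MYH8 were 1122 ± 179 CPM (SD, n = 6) with high IMF and 1037 ± 120 CPM (SD, n = 6) with low IMF. The log2FC, low over high IMF, was -0.11 with a standard error of 0.12 and a 95% confidence interval from -0.37 to 0.14. The unadjusted p was 0.362 and the adjusted p 0.773 (edgeR). The interval corresponds to a low IMF level of 0.773 to 1.11 times the high IMF level. Pig 3 decided most of this value, since without it the log2FC was -0.03. Among the 6 pigs whose Y chromosome counts go with the label it was -0.17, with an adjusted p of 0.998 (edgeR).

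Neither member was a differentially expressed gene (DEG), defined by the thresholds of the study, 0.05 for the adjusted p and 0.58 for the size of the log2FC. The share of DEGs among all genes tested was 0%, with 0 of 14262 by edgeR's quasi-likelihood test and by limma-voom. DESeq2's Wald test on 20341 genes gave 65, and by it both members were also not DEGs. The study, which used DESeq2, reported DEGs at these thresholds. At an unadjusted p at or under 0.05 stood 0 of the 2 members and 1486 genes, or 10.4% of all genes tested, 5.38% with the higher level in low IMF and 5.04% with the higher level in high IMF. The groups did not overlap for 0.659% of all genes tested and for neither member. By the same unadjusted rule stood 0 of 5 skeletal fibre markers, 0 of 7 adipocyte, 0 of 6 macrophage and 0 of 4 Schwann cell markers, 1 of 5 smooth muscle markers (LMOD1), 1 of 5 endothelial markers (CDH5) and 1 of 6 stromal markers (PDGFRA), and their part in the levels of MYH3 and MYH8 was not tested. Both 95% confidence intervals lay inside the log2FC threshold of 0.58 in either direction.

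**Figure D2:**
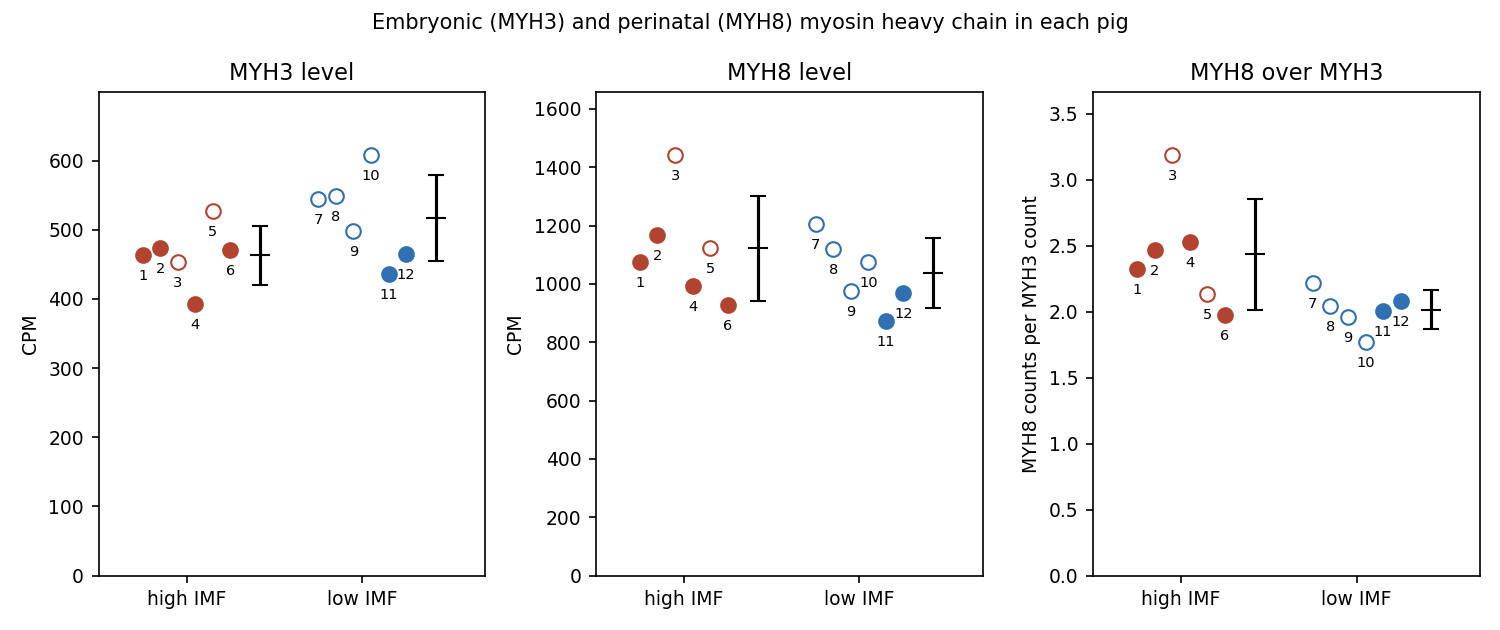
Level of MYH3 and of MYH8 in CPM and the number of MYH8 counts per MYH3 count in each pig, numbered 1 to 12, with the group mean and SD as black bars (n = 6). Open circles are the 6 pigs whose Y chromosome counts went against the labelled sex. The levels overlap between groups, and the ratio in pigs 1 to 4 lies above every low IMF pig.

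The ratio of the 2 members is given as a description, since it was looked at after the levels. MYH3 and MYH8 have coding sequences of the same length, 5820 bases, so the ratio of counts is also a ratio of levels per length. High IMF pigs had between 1.97 and 3.19 MYH8 counts per MYH3 count, with a median of 2.40. Low IMF pigs had between 1.77 and 2.22, with a median of 2.02. The ratio in 4 high IMF pigs (1, 2, 3 and 4) lay above every low IMF pig, and pigs 5 and 6 lay within the low IMF range. The mean was 2.44 ± 0.422 (SD, n = 6) with high IMF and 2.01 ± 0.148 (SD, n = 6) with low IMF. The mean difference of 0.422 was 0.272 without pig 3 and 0.281 in the 6 pigs whose Y chromosome counts go with the label.

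The share of all myosin heavy chain counts could be taken only over the 10 genes with both a heavy chain symbol and a row, which leave out MYH1, MYH2, MYH4 and MYH7. These 10 genes held between 0.394% and 0.770% of all counts of a pig. The gene named MYH6 (ENSSSCG00000002029) held the largest part, from 50.5% to 74.8% in the high IMF pigs and from 47.6% to 78.8% in the low IMF pigs. MYH3 and MYH8 together held 21.2% to 40.7% in the high IMF pigs and 18.4% to 40.9% in the low IMF pigs.

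MYH3 took between 6.14% and 9.78% of these counts in the high IMF pigs, with a median of 8.09%, and between 5.73% and 13.4% in the low IMF pigs, with a median of 10.1%. The low IMF range enclosed the high IMF range. The mean share was 8.10 ± 1.49% (SD, n = 6) with high IMF and 9.96 ± 3.11% (SD, n = 6) with low IMF. The difference of 1.86 percentage points had a two-sided exact permutation p of 0.216, unadjusted. It was 2.18 percentage points in the 6 pigs whose Y chromosome counts go with the label.

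MYH8 took between 14.5% and 31.0% in the high IMF pigs, with a median of 17.9%, and between 12.7% and 27.6% in the low IMF pigs, with a median of 20.3%. The mean share was 19.9 ± 6.19% (SD, n = 6) with high IMF and 19.8 ± 5.63% (SD, n = 6) with low IMF. The difference of -0.106 percentage points had a two-sided exact permutation p of 0.976, unadjusted, and turned to 2.44 in the 6 pigs whose Y chromosome counts go with the label. Of the counts on MYH3 and MYH8 alone, MYH3 took 29.5 ± 3.36% (SD, n = 6) with high IMF and 33.3 ± 1.67% (SD, n = 6) with low IMF. That difference of 3.81 percentage points restates the ratio given above, and like it is given as a description.

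**Figure D3:**
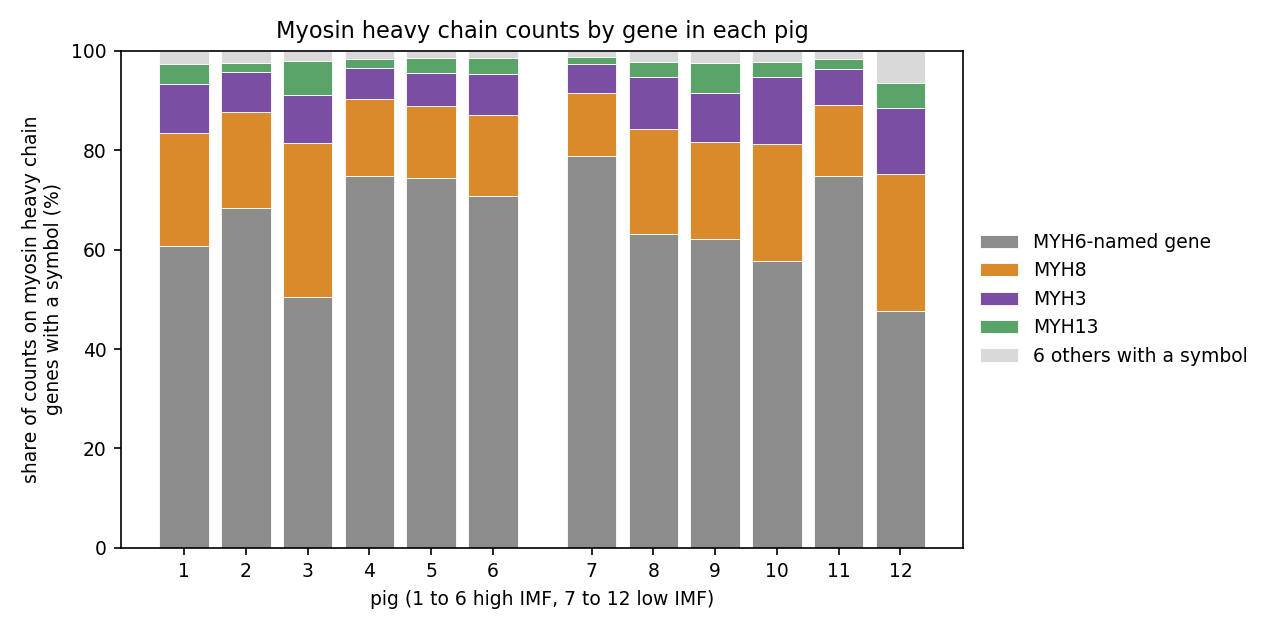
Share of the counts on the 10 myosin heavy chain genes with a symbol, in percent, for each pig. The MYH6-named gene fills between 47.6% (pig 12) and 78.8% (pig 7) of a bar. The share of MYH3 and MYH8 is small where that of the MYH6-named gene is large, which follows in part from shares that add up to a whole.

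Per kilobase of coding sequence the order of the heavy chains with a symbol and a row was the same in all pigs at the top. The adult chains MYH1, MYH2, MYH4 and MYH7 have no row, so their place in this order is not known. The MYH6-named gene ran from 283 to 1270 CPM per kilobase, MYH8 from 150 to 248, MYH3 from 67.6 to 104 and MYH13, known from eye and laryngeal muscle, from 20.1 to 57.6. None of these 4 ranges touched its neighbour. Below them stood MYH9 (5.71 to 13.6), a non-muscle heavy chain, and the ranges of MYH11 (smooth muscle, 1.99 to 22.8), MYH7B (1.27 to 4.99) and MYH14 (1.81 to 4.32) overlapped. MYH15 ran from 0.00541 to 0.311 CPM per kilobase, MYH16 was too low to be tested, and MYH10 had no identifier. None of the 7 other heavy chains tested had an unadjusted p at or under 0.05.

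The name MYH6 is uncertain for the gene with the most counts among the heavy chains with a row. MYH6 encodes the alpha heavy chain of heart muscle, while the heart markers above were near 0. RefSeq places MYH6 on chromosome 7 from 75677666 to 75704486, next to MYH7, and the coding sequences are 91.0% identical, with 23.6% of the windows of 100 bases shared letter for letter. MYH7 has no row under its own name, and whether this row holds counts of MYH7 was not tested. Its level ran from 2351 to 5776 CPM in the high IMF pigs and from 1672 to 7493 CPM in the low IMF pigs, and the log2FC was -0.07 with a 95% confidence interval from -0.75 to 0.61 and an adjusted p of 0.965 (edgeR).

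**Figure D4:**
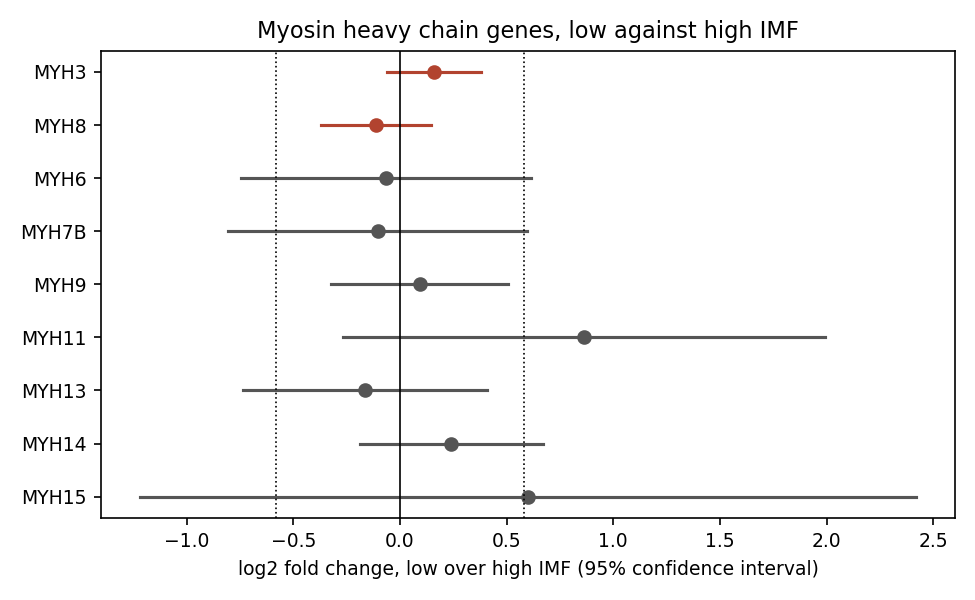
The log2FC, low over high IMF, of the 9 heavy chain genes tested, as points with 95% confidence intervals, members in red. Dotted lines mark 0.58 in either direction. The intervals of MYH3 and MYH8 are the narrowest and all 9 include 0.

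MYH3 and MYH8 had a smaller spread between pigs than most genes, on a scale where spread falls with level. The SD of log2 CPM over the 12 pigs was 0.169 for MYH3 and 0.195 for MYH8, beside a median of 0.331 over all genes tested. A smaller SD was found for 11.4% of genes in the case of MYH3 and 18.1% in the case of MYH8. The MYH6-named gene had an SD of 0.595 and spanned 4.48-fold from the lowest to the highest pig, against 1.55-fold for MYH3 and 1.65-fold for MYH8. A span this small was not particular to the members. The markers of skeletal muscle fibres spanned from 1.46-fold (MYOT) to 2.34-fold (ACTA1). The fast fibre partners described below spanned from 1.46-fold (TNNC2) to 9.27-fold (PVALB). By mean CPM, MYH8 ranked 82 and MYH3 ranked 161 of all genes tested.

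**Figure D5:**
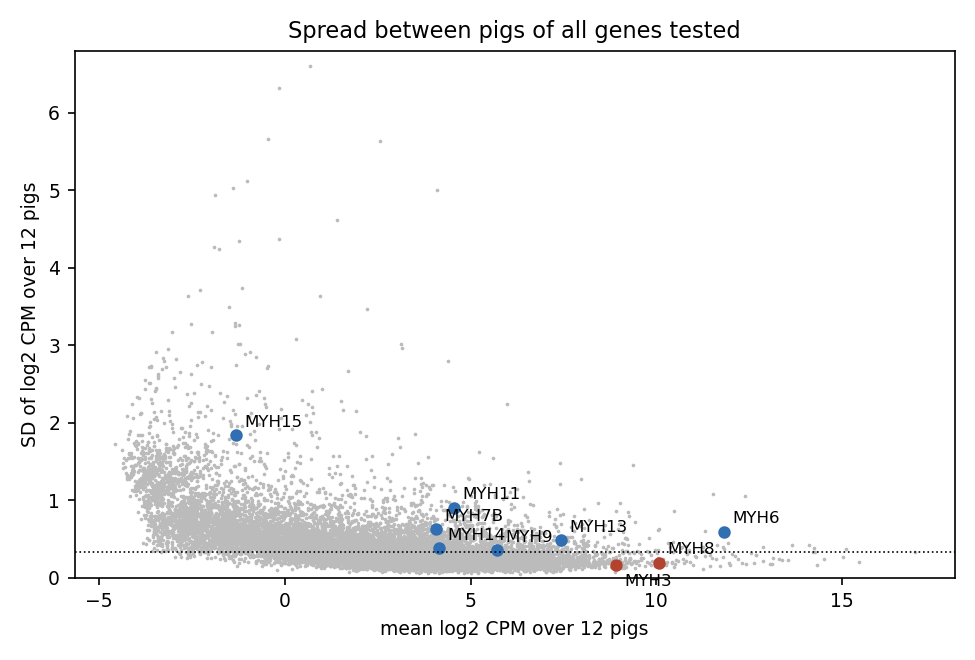
SD of log2 CPM over the 12 pigs against the mean log2 CPM for all 14262 genes tested (grey), with members in red and other heavy chains in blue. The dotted line is the median SD of 0.331. MYH3 (0.169) and MYH8 (0.195) lie below it and the MYH6-named gene (0.595) above it.

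No relation between the members from pig to pig was detected. Over 12 pigs the log2 CPM of MYH3 and MYH8 had a Pearson r of 0.26 (permutation p = 0.425) and a Spearman rho of 0.31 (permutation p = 0.330), and r was 0.26 without the 2 pigs farthest from the median of MYH3. Within the groups r was 0.16 in the high and 0.80 in the low IMF pigs, and the difference between these was not tested. Against the mean log2 CPM of the slow, fast and developing fibre lists described next, r of MYH3 and MYH8 lay between -0.09 and 0.30. Without the 2 pigs farthest from the median of the member these values lay between -0.02 and 0.53, the highest that of MYH8 with the fast list. Within the groups they lay between -0.53 (MYH8 with the slow list, high IMF) and 0.76 (MYH8 with the fast list, high IMF). In this family of 8 relations, which was widened after the data were seen, the adjusted permutation p of r was 0.900 and that of rho 1 for each of the 7 relations with a member. The eighth relation was that of the MYH6-named gene with the slow fibre list, with r = 0.91 (permutation p = 6.0e-05, adjusted 0.00048) and rho = 0.80 (permutation p = 0.00287, adjusted 0.0230), and r was 0.80 without the 2 farthest pigs, 0.77 in the high and 0.96 in the low IMF pigs. As a description only, the genes with a symbol whose log2 CPM over the 12 pigs was most like that of MYH3 were SNX27 (r = 0.87), STIM1 (r = 0.86) and TFB1M (r = 0.84). Those most like MYH8 were SGF29 (r = 0.83), GNB5 (r = 0.83) and ELP4 (r = 0.78).

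The genes that work beside the heavy chains were read from lists of fast and slow fibre partners, developing fibre genes, thick filament genes and fibre type regulators. None of the genes tested in these lists was a DEG. The median log2FC over all genes tested was -0.01.

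All 12 fast fibre partners were tested, and 10 had a positive log2FC, low over high IMF (median log2FC 0.10). ATP2A1, the calcium pump of fast fibres, had 5181 ± 895 CPM (SD, n = 6) with high IMF and 7137 ± 890 CPM (SD, n = 6) with low IMF, a log2FC of 0.46 (SE 0.13) with an unadjusted p of 0.00343 and an adjusted p of 0.367 (edgeR). MYBPC2, the fast myosin-binding protein C, had a log2FC of 0.34 (SE 0.12), an unadjusted p of 0.0158 and an adjusted p of 0.427 (edgeR). These were the only 2 of the 12 at an unadjusted p at or under 0.05, beside 10.4% of all genes tested. The list held 0 such genes among the 6 pigs whose Y chromosome counts go with the label, where the share over all genes tested was 4.05%. PVALB, the calcium buffer parvalbumin and the least abundant of the list per kilobase, had a log2FC of 0.80 (adjusted p = 0.490), and ACTN3, the fast fibre alpha-actinin, 0.25 (adjusted p = 0.544). MYL11, the fast regulatory light chain and the most abundant, had a log2FC of -0.04 (adjusted p = 0.949).

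Of 12 slow fibre partners 8 had a row and were tested, and 0 stood at an unadjusted p at or under 0.05. A negative log2FC was found for 6 of them (median log2FC -0.12). ATP2A2, the calcium pump of slow fibres, had a log2FC of -0.30 (adjusted p = 0.703). The log2FC was -0.31 for MYL3, the slow essential light chain (adjusted p = 0.832), -0.23 for MYL2, the slow regulatory light chain and most abundant of the list (adjusted p = 0.835), and -0.13 for MYBPC1, the slow myosin-binding protein C (adjusted p = 0.856). CSRP3, the muscle LIM protein and least abundant, had a log2FC of 0.02 (adjusted p = 0.994).

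Genes of developing and regenerating fibres, in which MYH3 and MYH8 are known to be used, had mean levels from 0.434 to 17.8 CPM where tested. The median over all genes tested was 5.98 CPM. Of 12 listed, 10 had a row and 9 were tested, and the list summed to between 50.1 and 121 CPM over the 12 pigs. MYOG, myogenin, which drives myoblast differentiation, was the most abundant per kilobase and had 18.2 ± 5.47 CPM (SD, n = 6) with high IMF and 16.2 ± 5.21 CPM (SD, n = 6) with low IMF. MYF5, a factor of muscle precursor cells, was the least abundant, at 0.528 ± 0.175 CPM (SD, n = 6) and 0.340 ± 0.172 CPM (SD, n = 6) in the same order, with an adjusted p of 0.558 (edgeR). NCAM1, an adhesion molecule of immature and denervated fibres, had a log2FC of 0.51 and an adjusted p of 0.441 (edgeR). It was the only 1 of the 9 at an unadjusted p at or under 0.05, beside 10.4% of all genes tested. That count ran from 0 to 3 with each pig left out. The log2FC was -0.88 for ACTC1, the cardiac actin used by developing muscle (adjusted p = 0.513), and -0.55 for CHRNA1, a subunit of the muscle acetylcholine receptor (adjusted p = 0.548). The median log2FC of the list was -0.07.

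Of 12 thick filament assembly and M-band genes, 11 had a row and 10 were tested, with a median log2FC of 0.22, and HSP90AA1, a myosin chaperone, was listed at 0 in all pigs. The unadjusted p was at or under 0.05 in edgeR for TRIM54 (log2FC 0.52, adjusted p = 0.420) and TRIM63 (log2FC 0.52, adjusted p = 0.441). Both are ring-finger proteins of the sarcomere. TRIM63 targets heavy chain protein for breakdown and was the most abundant per kilobase. These 2 of 10 stand beside 10.4% of all genes tested that met the same rule. That count ran from 1 to 5 with each pig left out. Among only the pigs whose Y chromosome counts go with the label it was 2, beside 4.05% of all genes tested. UNC45B, the chaperone that folds the myosin head, had a log2FC of 0.25 (adjusted p = 0.548), and MYLK2, the skeletal myosin light chain kinase, 0.30 (adjusted p = 0.518). MYOM3, an M-band protein and the least abundant, had a log2FC of -0.11 (adjusted p = 0.934).

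Of 21 fibre type regulators 20 were tested, with a median log2FC of 0.04, and 4 stood at an unadjusted p at or under 0.05, all with the higher level in low IMF. PPARGC1A, a coactivator of oxidative fibre genes, had 110 ± 33.6 CPM (SD, n = 6) with high IMF and 209 ± 114 CPM (SD, n = 6) with low IMF, a log2FC of 0.92 (SE 0.35) with an adjusted p of 0.434 (edgeR). The log2FC was 0.44 for MEF2D (adjusted p = 0.419) and 0.50 for MEF2A (adjusted p = 0.452), both transcription factors of muscle genes. It was 0.27 for SOX6 (adjusted p = 0.441), a repressor of slow fibre genes. RCAN1, an inhibitor of calcineurin and the most abundant per kilobase, had a log2FC of -0.21 (adjusted p = 0.884), and NFATC4, a calcineurin-regulated factor and the least abundant, -0.04 (adjusted p = 0.975). These 4 of 20 stand beside 10.4% of all genes tested that met the same rule in either direction, of which 5.38% in this direction. Among the 6 pigs whose Y chromosome counts go with the label, 2 list genes had an unadjusted p at or under 0.05, beside 4.05% of all genes tested.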

How the data were processed

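Stranded libraries of polyadenylated RNA from 12 pigs were read as pairs of 100 bases. By the study's methods and the submitters' processing notes, the authors used Trimmomatic for trimming, HISAT2 for alignment to Sscrofa11.1, StringTie for known transcripts and HTSeq for counting. They deposited raw counts per Ensembl gene, not normalized. Their sum exceeds the reads that the study kept after trimming, so a count need not be 1 read. The release of the annotation, the strand option and the treatment of reads that align more than once are not given in the sources used here.

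Here, symbols came from a gene name table (14857 of 25880 genes). The filterByExpr function of edgeR 4.0.16 (R 4.3.3) kept 14262 genes, TMM scaled them, and the quasi-likelihood test compared low with high IMF. The residual degrees of freedom were 10, and p-values were Benjamini-Hochberg adjusted over all genes tested. Log2 CPM used a prior count of 2. Shares were compared by exact permutation over 924 arrangements and correlations by 100000 resamples (scipy 1.17.1). RefSeq coding sequences came from the Sscrofa11.1 reference. The genes named are the heavy chains, the 4 genes of each list with the smallest p, its most and least abundant gene per kilobase, and the 3 genes most like each member. Members and lists were chosen with earlier results of these data known. Other settings were upper-quartile scaling, DESeq2's size factors, library totals without heavy chains, all genes with a count, DESeq2 1.42.0, limma-voom (limma 3.58.1), labelled sex or age as a covariate, each pig left out, and only the 6 pigs whose Y chromosome counts go with the label. Scripts were tested on simulated data.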

Additional observations from a re-analysis of the deposited data

Results flagged for a closer look

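Neither MYH3 nor MYH8, in level, share or ratio, had a pig apart from its own group of 6 by Dixon's test. Among 24 group values of the heavy chains looked at, 3 had such a pig, where chance alone flags about 1 in 20 groups. MYH11, the smooth muscle heavy chain, stood at 135 CPM in low IMF pig 12, where the other pigs of that group had 14.4 to 27.2 CPM. The 6 high IMF pigs had 11.8 to 34.8 CPM. MYH13 stood at 295 CPM in low IMF pig 9, where the lowest pig of that group had 121 CPM. MYH15 stood at 1.83 CPM in high IMF pig 6.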

How the results depend on the processing

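The levels of MYH3 and MYH8 kept their direction and stayed short of the DEG thresholds in all 21 alternatives. The log2FC ranged from 0.01 to 0.20 for MYH3 and from -0.17 to -0.03 for MYH8, and leaving out single pigs gave 0.11 to 0.20 and -0.16 to -0.03. In each alternative 0 members and 0 list genes were DEGs, beside up to 65 genes of the whole table (DESeq2's Wald test).

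Shares depended on more. The MYH8 share difference, -0.106 percentage points, was between -1.67 and 2.10 with each pig left out, positive without high IMF pigs 1 (0.459) or 3 (2.10) or low IMF pigs 7 (1.32) or 11 (0.996), and 2.44 in the 6 pigs whose Y chromosome counts go with the label. That of MYH3 was between 1.18 and 2.71 with each pig left out. With only MYH3 and MYH8 in the denominator it was 3.81 for MYH3 and -3.81 for MYH8, the same difference with opposite signs. Its two-sided exact permutation p was 0.026, unadjusted, and no conclusion is drawn from it. The difference restates the ratio of both genes, which was looked at after the levels, and is given as a description. The mean ratio of MYH8 to MYH3 differed by 0.272 to 0.514 with each pig left out, alternatives chosen after seeing the data. The causes were not tested.

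Over the alternatives, the number of list genes with an unadjusted p of at most 0.05 ranged from 0 to 4 for fast, 0 to 1 for slow, 0 to 3 for developing, 1 to 5 for thick filament and 2 to 5 for regulator genes, while the share over all genes tested ranged from 4.05% to 14.3%. No paired analysis was possible because the groups share no replicate numbers. By the study, pigs were slaughtered on several days and libraries were sequenced in pairs on a lane, but which pigs shared a day or lane is not given in the sources used here. Each value of MYH3 and MYH8 rests on many counts, and how reads from shared sequence were assigned was not tested.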
